A study of Mus musculus with 12 samples.

Results

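Carbonic anhydrases are zinc enzymes that interconvert carbon dioxide and bicarbonate. In fat they are known as suppliers of bicarbonate to the carboxylases of fatty acid synthesis, and as buffers of cell and surface pH. The isoforms differ in place: some are cytosolic, one is mitochondrial, and others sit at the plasma membrane. The cytosolic isoform of adipocytes, Car3, has low catalytic activity and is among the most abundant proteins of white and brown adipocytes, where it is also studied as a target of oxidation. Chromatin at 9 genes of this family was examined here: the neighbours Car13, Car1, Car3 and Car2 in 1 cluster on chromosome 3, and Car4, Car5a, Car8, Car12 and Car14 elsewhere. Members were all peaks that the deposited peak tables assign to these symbols, which gave 40 of 58558 peaks in brown fat and 24 of 39558 in inguinal fat.

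The samples were made by ATAC-seq, in which a transposase inserts adapters into open DNA, so that reads at a site follow its accessibility. Brown fat came from 3 flox mice, whose Baf60a alleles carry loxP sites, and from 3 AKO mice, which carry the same floxed alleles and an Adiponectin-Cre transgene that deletes Baf60a (Smarcd1, a subunit of the SWI/SNF chromatin remodeler) in adipocytes. Inguinal fat, a white depot that forms beige adipocytes in the cold, came from flox and AKO mice of 6 to 8 months that were acclimated to 10 °C and held there for 7 more days, with the fat of 6 mice per genotype pooled and divided into 3 aliquots. All mice were C57BL/6. The age of the brown fat mice and the temperature at which they were kept are not given in the sources used here. Whole tissue was used, and cells other than adipocytes keep Baf60a in the AKO mice, so that fewer adipocytes and less open chromatin per adipocyte cannot be told apart. In inguinal fat the 3 values per genotype are technical repeats of 1 pool, and p-values there measure the spread between aliquots, not between mice.

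Values below are normalized reads, that is, the reads in a peak divided by the size factor of its sample. Reads in peaks came to between 6336670 and 27500738 per brown fat sample and between 4066720 and 6691161 per inguinal aliquot. In brown fat a peak inside Smarcd1 (chr15:99704112-99704521) held between 136 and 201.0 normalized reads in flox and between 23.7 and 57.9 in AKO, a log2 fold change of -2.98 ± 0.27 (SE), with an adjusted p of 0.269 by limma and 4.05e-11 by DESeq2. The inguinal table has 1 Smarcd1 peak, over the start site, which held 249, 188 and 211 normalized reads in flox against 233, 229 and 230 in AKO and checks nothing about the deletion. Peaks of the adipocyte marker list (6 of 6 genes with a peak) were present in every sample. Their summed value in brown fat ran from 15752 to 17882 in flox and from 11795 to 15861 in AKO. Of the 40 peaks, 9 were lower and 3 higher there without overlap (8.84% and 8.77% of all peaks). In inguinal fat the sum ran from 2518 to 3363 in flox and from 2716 to 2996 in AKO. The part of this list in the values below was not tested. Of the erythroid markers, Hba-a1 and Hbb-bt had no peak in either table. Gata1 and Alas2 lie on the X chromosome and could have none, as only autosomal reads were kept.

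Sequence was read for the regions on which the results turn: the peak behind Car3 that had the lowest fold change of the family in both depots, the peak inside Car3 with the smallest p by limma in brown fat, and the Car4 peak that DESeq2 called higher in both depots. Each is given as 300 bases of mm10, plus strand, 5′ to 3′, in lower case. Capitals mark matches to 3 motifs searched on both strands: DR1, the element of PPARγ and other nuclear receptors, as AGGTCANAGGTCA with up to 2 mismatches, the EBF element as TCCC and GGGA with 2 bases between and without mismatch, and the C/EBP element as TTGCGCAA with up to 1 mismatch, where N is any base. Matches may overlap each other. The windows from Car3, which has no match in these regions, are central, while the Car4 window was placed to hold the matches of its region and is the first 300 of 585 bases. Over whole peaks, a DR1 match is found in 11.9% of brown fat and 8.74% of inguinal peaks, an EBF match in 4.44% and 3.07%, and a C/EBP match in 13.3% and 12.5%. The sequences are from the RefSeq copy of GRCm38.p6.
Car3 downstream region, chr3:14873007-14873306: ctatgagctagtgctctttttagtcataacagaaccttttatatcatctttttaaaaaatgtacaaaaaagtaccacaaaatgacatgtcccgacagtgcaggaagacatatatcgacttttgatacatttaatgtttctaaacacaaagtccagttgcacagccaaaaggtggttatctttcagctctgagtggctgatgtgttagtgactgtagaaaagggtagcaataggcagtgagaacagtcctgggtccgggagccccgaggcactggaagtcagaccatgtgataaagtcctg
Car3 intron 3 region, chr3:14867436-14867735: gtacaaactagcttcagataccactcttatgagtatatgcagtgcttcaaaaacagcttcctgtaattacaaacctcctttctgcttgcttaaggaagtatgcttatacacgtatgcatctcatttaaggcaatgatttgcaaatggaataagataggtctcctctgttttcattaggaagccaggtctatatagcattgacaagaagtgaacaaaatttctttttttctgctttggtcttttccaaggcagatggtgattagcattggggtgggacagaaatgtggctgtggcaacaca
Car4 intron 1 region, chr11:84959717-84960016: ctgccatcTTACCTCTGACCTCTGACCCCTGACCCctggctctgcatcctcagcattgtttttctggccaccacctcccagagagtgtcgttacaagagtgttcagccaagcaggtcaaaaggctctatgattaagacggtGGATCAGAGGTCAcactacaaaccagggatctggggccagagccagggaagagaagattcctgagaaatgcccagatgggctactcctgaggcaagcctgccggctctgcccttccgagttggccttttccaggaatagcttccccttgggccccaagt

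The lowest fold changes of the family lay at Car3. By limma with Benjamini-Hochberg adjustment at 0.1, no member peak and no peak of either table was called (0% of 58558 in brown fat and 0% of 39558 in inguinal fat). At an unadjusted p under 0.05, 7 of the 40 member peaks were lower in AKO brown fat, against 5.59% of all peaks, and 2 were higher, against 3.46%. In inguinal fat 4 of 24 were lower (7.42% of all peaks) and 4 were higher (7.61%). DESeq2, run on the whole reads recovered from the deposited values, called 3 member peaks lower and 1 higher in brown fat, where it called 0.298% of the peaks it tested lower and 0.11% higher. It called 1 lower and 1 higher in inguinal fat, where 0.63% of peaks were called lower and 0.546% higher. The median log2 fold change of the members was -0.15 in brown fat and -0.05 in inguinal fat, against 0.01 and -0.00 over all peaks. Flox and AKO values did not overlap at 11 member peaks of brown fat, 9 with AKO lower and 2 with AKO higher (8.84% and 8.77% of all peaks), and at 7 of inguinal fat, 4 with AKO lower and 3 with AKO higher (10.3% and 10.6%).

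**Figure D1:**
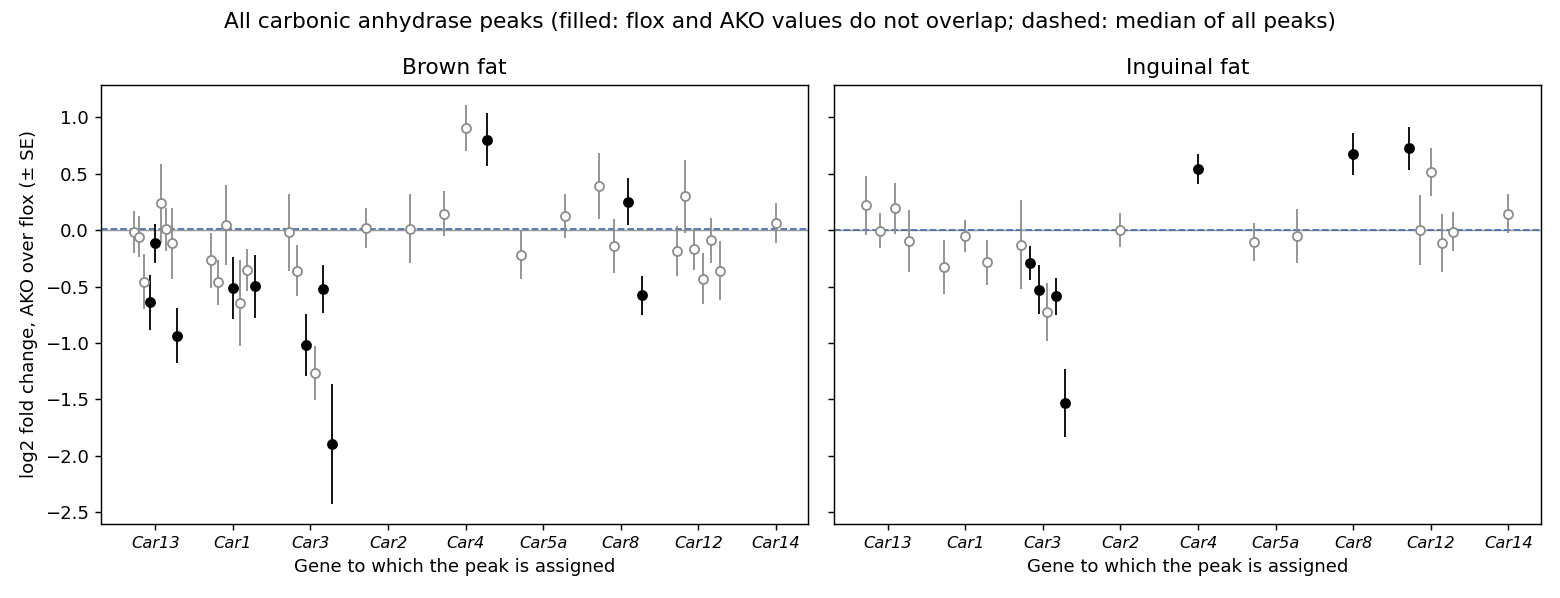
Log2 fold change (AKO over flox, limma) with its standard error for every peak assigned to a carbonic anhydrase gene, brown fat on the left (40 peaks, PC1 as covariate) and inguinal fat on the right (24 peaks). All 6 Car3 peaks lie below 0 in both panels, while Car2 lies near 0 and Car4 above it (the Car4 intron 1 peak of brown fat falls to -0.01 without PC1, and the distal Car3 peak of brown fat lies at 0.064 by DESeq2).

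Car3 had 6 peaks in each table, and the log2 fold change by limma was negative at all 12, although the distal one in brown fat was positive by DESeq2 (0.064) and edgeR (0.067), and both upstream ones in inguinal fat were positive when PC1, which separates the genotypes there, was added (2.22 and 1.44). It ranged from -1.90 to -0.02 in brown fat, with a median of -0.77, and from -1.53 to -0.13 in inguinal fat, with a median of -0.56. The gene lies on the plus strand at chr3:14863538-14872523 and has 7 exons. From upstream to downstream, the brown fat peaks are a distal one, a near upstream one, the start-site peak, one in intron 3, one over exon 6, and one just beyond the end of the gene.

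The start-site peak of Car3 had the highest mean of the family in brown fat. It spans chr3:14862683-14864709. Its values over the start site were 858, 1177 and 1482 normalized reads in flox against 682, 581 and 654 in AKO (mean 1173 ± 312 and 639 ± 52.2, SD, n = 3 each). Every AKO mouse lay below every flox mouse. The log2 fold change was -1.02 ± 0.27 (SE), with an adjusted p of 0.449 by limma and 0.00114 by DESeq2. The DESeq2 call was lost without flox mouse 3, where DESeq2 called no member peak, and without AKO mouse 3, where its adjusted p was 0.513.

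In inguinal fat the matching peak (chr3:14862667-14863681) held 302, 246 and 257 normalized reads in flox against 213, 220 and 134 in AKO. The aliquots of the genotypes did not overlap. Its log2 fold change was -0.53 ± 0.22 (SE), with an adjusted p of 0.314 by limma and 0.125 by DESeq2. The peak was called by edgeR's quasi-likelihood test (adjusted p of 0.0169) and by limma with a trend (0.0320).

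The peak beyond the last exon had the lowest fold change of the family in both depots. In brown fat it spans chr3:14872589-14873775, with its centre 9644 bp from the start site, and held 489, 863 and 1898 normalized reads in flox against 355, 299 and 424 in AKO. The groups did not overlap, but flox mouse 3 held more than both other flox mice together, and the SD in flox was 730 around a mean of 1083. The log2 fold change was -1.90 ± 0.53 (SE) and the adjusted p 0.466 by limma and 0.414 by DESeq2, while edgeR called it (0.0203). It ranked 15 from the lowest log2 fold change among 58558 peaks. Without flox mouse 3 the log2 fold change was -0.85, with an adjusted p of 0.686 by limma.

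In inguinal fat this peak (chr3:14872490-14873723), which also covers the last bases of exon 7, held 557, 320 and 557 normalized reads in flox against 209, 174 and 112 in AKO. The lowest flox aliquot lay well above the highest AKO aliquot. The log2 fold change was -1.53 ± 0.30 (SE), with an adjusted p of 0.151 by limma and 0.0116 by DESeq2, and it ranked 45 from the lowest among 39558 peaks. Leaving out flox aliquot 1, flox aliquot 3 or AKO aliquot 2 took its adjusted p by DESeq2 to 0.359, 0.250 and 0.226. The peaks of the depots share 1134 bp, of which the central 300 bases are printed above as the downstream region. Neither whole peak holds a match to DR1, EBF or C/EBP, while 19.4% of brown fat peaks of like width (within 10%) hold a DR1 match, 6.22% an EBF match and 20.6% a C/EBP match. Among inguinal peaks of like width the shares are 14.8%, 6.26% and 23.0%.

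Inside the gene, the intron 3 peak of brown fat (chr3:14867375-14867795) had the smallest p by limma among the brown fat members. It held 110, 186 and 229 normalized reads in flox against 89.7, 112 and 91.1 in AKO. Flox mouse 1 fell within the AKO range, just below AKO mouse 2. The log2 fold change was -1.27 ± 0.24 (SE) with the PC1 covariate, with an adjusted p of 0.417 by limma and 0.0142 by DESeq2, and -0.78 without the covariate, where its adjusted p by DESeq2 was 0.174 and the call was lost. The call was also lost without flox mouse 3 and without AKO mouse 1, where its adjusted p was 0.221. Without flox mouse 2, DESeq2 gave no adjusted p. The inguinal table has no peak there.

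The exon 6 peak of brown fat (chr3:14869746-14870129) held 138, 174 and 169 normalized reads in flox against 130, 116 and 106 in AKO, with a log2 fold change of -0.52 ± 0.21 (SE). In inguinal fat a narrow peak over exon 6 (chr3:14870090-14870290) held 62.7, 41.1 and 78.3 in flox against 43.8, 32.0 and 31.0 in AKO, with a log2 fold change of -0.72 ± 0.26 (SE). A second narrow one over exon 7 (chr3:14871530-14871730), found in inguinal fat alone, held 66.3, 71.2 and 90.4 in flox against 47.3, 46.8 and 55.6 in AKO, with a log2 fold change of -0.59 ± 0.16 (SE). The genotypes did not overlap at the brown fat peak and at the exon 7 peak, and they overlapped at the inguinal exon 6 peak. None of these 3 passed limma or DESeq2, with adjusted p between 0.194 and 0.758, and edgeR's quasi-likelihood test called the inguinal exon 6 peak.

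At the near upstream peak of Car3, -5533 bp from the start site in brown fat (chr3:14857768-14858242), flox mice held 316, 418 and 411 normalized reads and AKO mice 324, 270 and 311. The same site in inguinal fat (chr3:14857783-14858194) held 91.2, 83.4 and 79.2 in flox against 66.9, 61.7 and 79.1 in AKO. The log2 fold changes were -0.36 ± 0.23 and -0.29 ± 0.15 (SE). The genotypes overlapped in brown fat, and in inguinal fat they were separated by less than 1 normalized read. At the distal peak in brown fat (chr3:14840748-14841429) flox mice held 295, 239 and 222 and AKO mice 299.99, 124 and 144, and in inguinal fat (chr3:14840861-14841307) flox aliquots held 68.4, 26.7 and 80.0 and AKO aliquots 38.0, 55.9 and 52.4. Both sets overlapped, with log2 fold changes of -0.02 ± 0.34 and -0.13 ± 0.39 (SE). Without the PC1 covariate the brown fat value was -0.52 (-0.41 by DESeq2), beside -0.44 at the exon 6 peak. This distal peak holds a C/EBP match in both tables. Within the start-site peak, 1 DR1 match was found in both tables and 1 C/EBP match in brown fat, against a DR1 match in 30.6% of brown fat and 12.6% of inguinal peaks of like width.

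**Figure D2:**
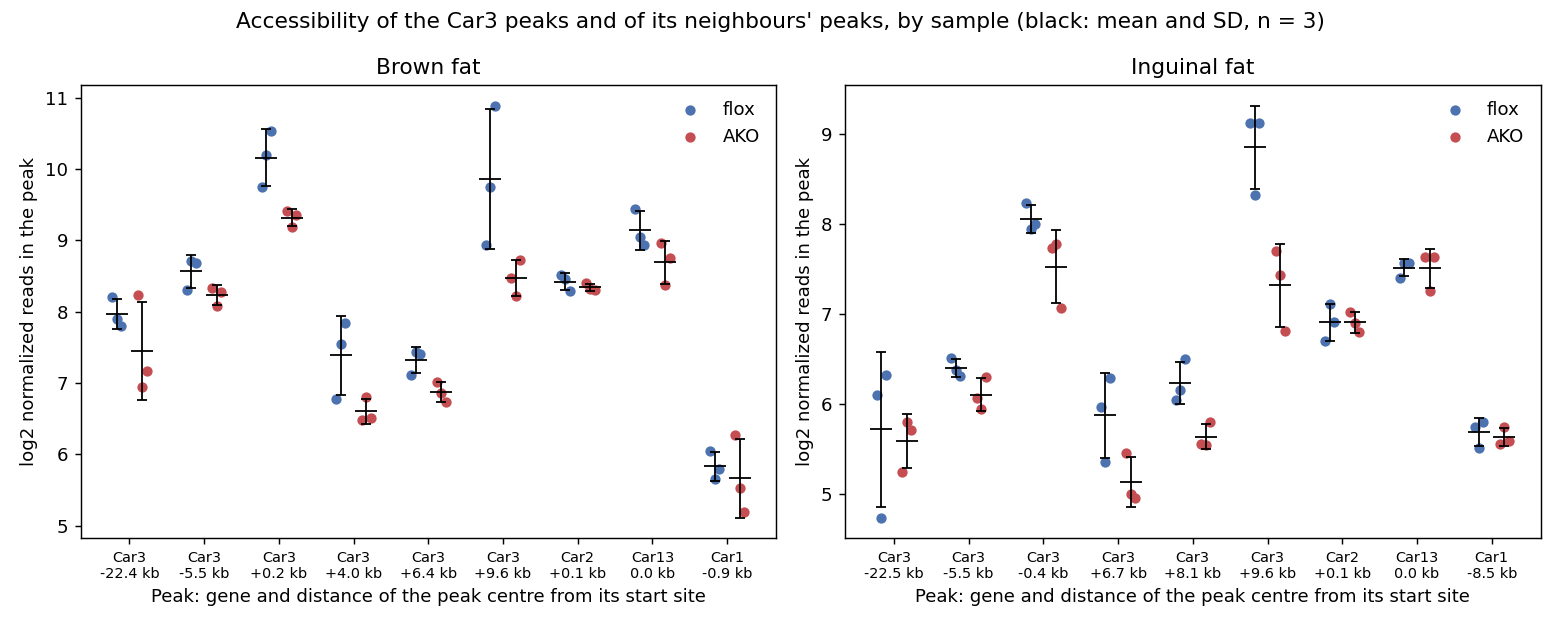
Log2 normalized reads in each sample at the 6 Car3 peaks, ordered from upstream to downstream, and at the peak nearest the start site of Car2, Car13 and Car1, with mean and SD of 3 samples in black. The genotypes separate at the start-site peak (+0.2 and -0.4 kb) and downstream peak (+9.6 kb) of Car3 in both depots, and overlap at Car2, Car13 and Car1.

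The brown fat fit carried the score of each sample on the first principal component (PC1) as a covariate, as in the study's methods. PC1 took up 55.6% of the variance, and its score was -98.2, -41.8 and 14.6 in flox and -0.617, 112 and 13.5 in AKO. Apart from the order of AKO mice 1 and 3, depth fell as the score rose. Flox mouse 1 was deepest (27500738 counted reads) and AKO mouse 2 shallowest (6336670). Flox mouse 2 (18049959) was deeper than every AKO mouse. Flox mouse 3 (10115267) was shallower than AKO mice 1 (12886038) and 3 (13821838). What part depth has in the covariate, and so in the fold changes fitted with it, was not tested. Among the flox mice, the values of the start-site and downstream Car3 peaks were higher the higher the score. Among the AKO mice the start-site value was lower the higher the score, and the downstream value was lowest at the highest score. Without the covariate the log2 fold change was -0.84 at the start-site peak and -1.38 at the downstream peak. The brown and beige adipocyte marker list moved with genotype in the same samples. It has peaks at 6 of 6 genes (72 peaks), 68 of which had a negative log2 fold change, and its summed value ran from 20630 to 24697 normalized reads in flox and from 14109 to 15470 in AKO brown fat. In inguinal fat its sum ran from 1449 to 1642 in flox and from 1531 to 1676 in AKO, where the Car3 peaks were also lower. Skeletal muscle, which expresses Car3 too, had peaks at 4 of 6 marker genes in brown fat, with none at Tnnt3 and Ckm, and a summed value from 321 to 414 in flox and from 355 to 498 in AKO. In inguinal fat 2 of 6 muscle genes had a peak, with a sum from 180 to 212 in flox and from 179 to 205 in AKO. Other lists moved in inguinal fat: macrophage genes (4 of 6 with a peak, none at Cd68 and Mrc1) summed to between 417 and 445 in flox and between 307 and 364 in AKO, and the lymphocyte list, with 1 peak at 1 of 6 genes, to between 60.0 and 74.9 in flox and between 75.9 and 92.2 in AKO. What part these cell types have in the carbonic anhydrase values was not tested.

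The question of whether the difference at Car3 extended over the cluster was addressed with its neighbours, which encode cytosolic isoforms. Car2 is a fast enzyme found in many cell types. Its start-site peak gave nearly equal values in both genotypes. It held 366, 350 and 312 normalized reads in flox against 337, 321 and 317 in AKO brown fat (chr3:14886075-14887068), and 104, 138 and 121 in flox against 130, 120 and 111 in AKO inguinal fat (chr3:14886096-14886892). The log2 fold changes were 0.02 ± 0.18 and 0.00 ± 0.15 (SE), and the genotypes overlapped in both depots. Without the PC1 covariate the brown fat value was -0.07.

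Car13, another cytosolic isoform of wide expression, had 9 peaks in brown and 4 in inguinal fat. Its start-site peak held 697, 528 and 488 normalized reads in flox against 498, 330 and 431 in AKO brown fat (chr3:14641265-14642227). In inguinal fat (chr3:14641261-14642121) it held 170, 190 and 189 in flox against 198, 153 and 199 in AKO. The genotypes overlapped in both, and the log2 fold changes were -0.06 ± 0.18 and -0.01 ± 0.15 (SE). Without the covariate the brown fat value was -0.45. A brown fat peak far beyond the gene, with its centre 52817 bp from the start site (chr3:14694306-14694782), held 224, 289 and 292 in flox against 135, 127 and 169 in AKO. The AKO mice lay below all flox mice there, with a log2 fold change of -0.94 ± 0.24 (SE) and an adjusted p of 0.443 by limma and 0.0844 by DESeq2. That DESeq2 call was lost without flox mouse 1 (adjusted p of 0.246), AKO mouse 1 (0.926) and flox mouse 3, and without flox mouse 2 no adjusted p was given. Named for that after their values were seen, 2 other Car13 peaks, in introns 2 and 4, were lower without overlap, with log2 fold changes of -0.64 ± 0.25 and -0.12 ± 0.17 (SE) and adjusted p of 0.531 and 0.862 by limma. Of the 9 brown fat Car13 peaks, 3 were thus lower and 0 higher without overlap (8.84% and 8.77% of all peaks). The inguinal Car13 peak of smallest p, upstream of the gene (chr3:14629186-14629356), held 25.7, 18.9 and 31.0 in flox against 32.3, 20.6 and 36.4 in AKO.

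Car1, best known from red blood cells and colon, had no peak over either of its annotated starts. Of its 7 brown fat peaks 6 had a negative log2 fold change, from -0.64 to -0.27, and 2 were lower without overlap (8.84% of all peaks). Without the covariate all 7 lay below 0, from -0.81 to -0.16. The peak nearest a start (chr3:14779197-14779526) held 66.4, 50.2 and 55.6 normalized reads in flox against 77.3, 46.4 and 36.5 in AKO, a log2 fold change of 0.05 ± 0.35 (SE). The brown fat peak of smallest p (chr3:14754636-14756444) held 285, 350 and 429 in flox against 281, 313 and 308 in AKO, a log2 fold change of -0.46 ± 0.20 (SE). The genotypes overlapped at both. In inguinal fat all 3 Car1 peaks overlapped. The one nearest a start (chr3:14786718-14787202) held 53.5, 45.6 and 55.9 in flox against 47.3, 53.7 and 48.1 in AKO. The one of smallest p (chr3:14832776-14833152) held 108, 68.9 and 91.2 in flox against 71.5, 62.8 and 83.4 in AKO. The tallest Car1 peak of brown fat, in intron 1 (chr3:14786573-14788980) and picked for its height, held 872, 794 and 971 in flox against 787, 579 and 490 in AKO, without overlap and with a log2 fold change of -0.51 ± 0.27 (SE). The brown fat Car1 peak closest to Car3 (chr3:14832642-14833191), named after its values were seen, was also lower without overlap. It held 369, 338 and 463 in flox against 309, 193 and 259 in AKO, a log2 fold change of -0.50 ± 0.28 (SE). None of the Car1 peaks passed limma or DESeq2 with all samples, and DESeq2 called the tallest peak without AKO mouse 1. The erythroid list had peaks at 2 of 6 genes, of which Gata1 and Alas2 could have none. Its sum ran from 558 to 619 in flox and from 639 to 665 in AKO brown fat, and its part in the Car1 values was not tested. Over Car13, Car1 and Car2 the log2 fold change was below 0 at 13 of 18 brown fat peaks (median -0.19) and at 5 of 8 inguinal peaks (median -0.03). Without overlap, 5 of the 18 brown fat peaks were lower and 0 higher (8.84% and 8.77% of all peaks). Of the 8 inguinal peaks 0 were lower and 0 higher (10.3% and 10.6%).

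**Figure D3:**
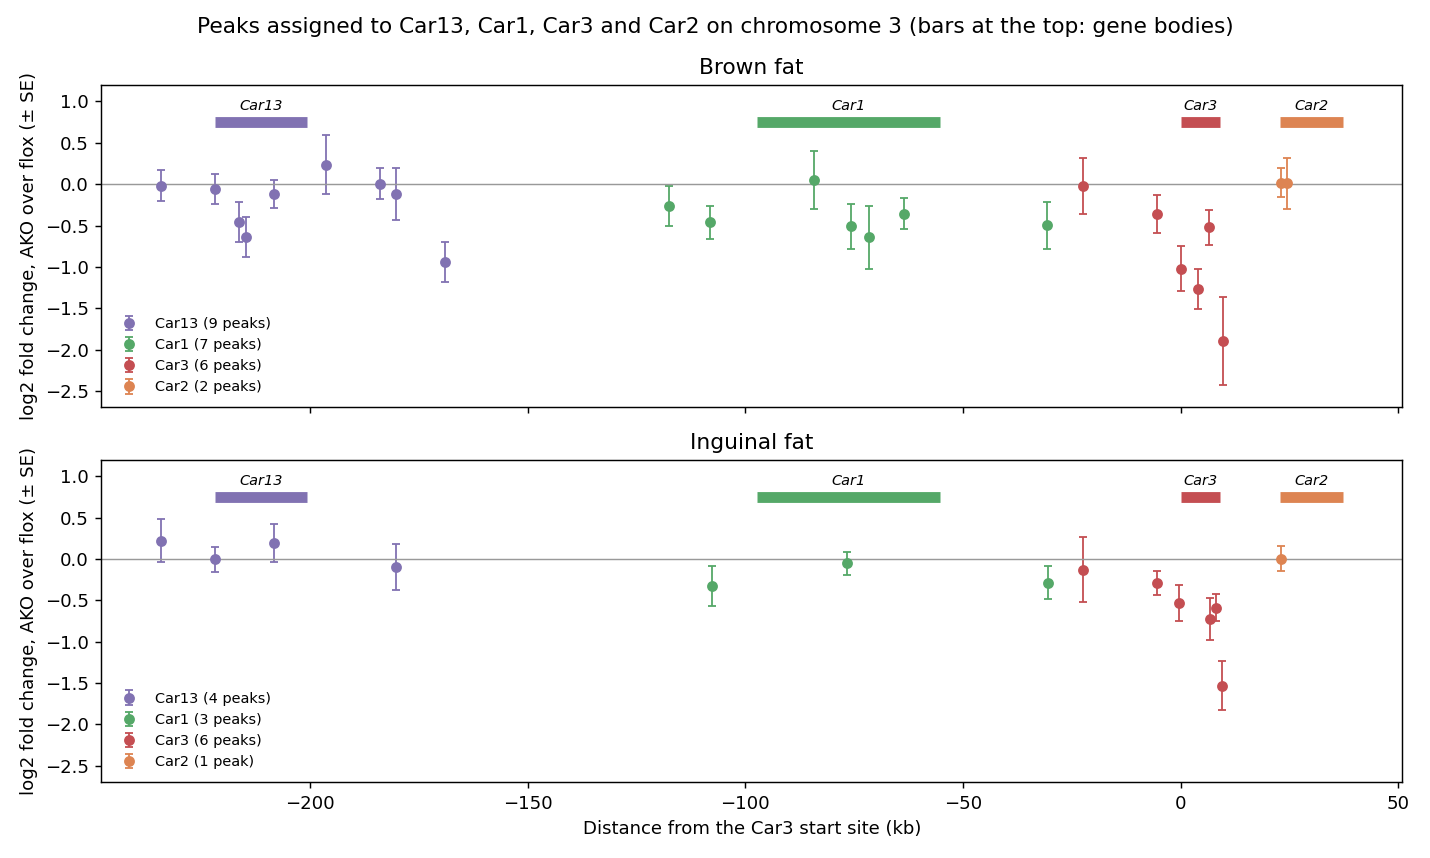
Log2 fold change (AKO over flox, limma) with its standard error for each peak of the chromosome 3 cluster, against its distance from the Car3 start site in kb, with brown fat above and inguinal fat below. The brown fat fit has PC1 as covariate. The lowest values lie within and just behind Car3, and the start-site peaks of Car13 and Car2 lie near 0 on either side. Without PC1 the brown fat start-site peaks give -0.45 at Car13, -0.84 at Car3 and -0.07 at Car2. The Car1 peaks then lie from -0.81 to -0.16.

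Within each sample, the log2 ratio of the Car3 start-site peak to the nearest peak of a neighbour was lower in AKO for each of the 3 neighbours in both depots. These ratios carry no covariate, unlike the main brown fat fold changes above. Without PC1 those were -0.84 at the start-site peak of Car3 and -0.45 at that of Car13. Against Car2 the ratio fell from 1.74 ± 0.51 to 0.97 ± 0.10 (SD, n = 3) in brown fat, a difference of -0.77, with no overlap between genotypes (exact two-sided permutation p = 0.1, adjusted p = 0.3 over the 6 comparisons). In inguinal fat the difference was -0.53 (exact p = 0.2) and the genotypes overlapped. Against Car1 it was -0.68 in brown fat (exact p = 0.2) and -0.48 in inguinal fat (exact p = 0.1, adjusted p = 0.3), the latter without overlap. Against Car13 it was -0.40 in brown fat (exact p = 0.4) and -0.52 in inguinal fat (exact p = 0.3), both with overlap. Adjusted over the 6 comparisons, p lay between 0.3 and 0.4. The smallest p that 3 against 3 samples allow is 0.1, so that no comparison could pass 0.05. Single samples decided several sizes. In brown fat the difference against Car13 was -0.10 without flox mouse 3 and -0.75 without flox mouse 1, and that against Car1 was -0.43 without AKO mouse 1. In inguinal fat, without AKO aliquot 3, it was -0.23 against Car13 and -0.27 against Car1, and without flox aliquot 1 it was -0.34 against Car2. Sums over all peaks of each gene gave -0.38 against Car1 in brown fat, and -0.87 against Car2 and -0.91 against Car13 in inguinal fat.

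Further out, peaks of genes within 500 kb of the cluster were examined in the same way. In brown fat 16 peaks of 7 other genes had a median log2 fold change of -0.06. On the Car13 side the medians of Gm6300, Slc7a12, Lrrcc1, E2f5 and 1810022K09Rik lay from 0.08 to 0.21. On the Car2 side A930001A20Rik had 4 of 4 peaks below 0 (median -0.29) and Gm9733 4 of 5 (median -0.13). Without overlap, 2 of the 16 were lower (8.84% of all peaks), 1 at A930001A20Rik and 1 at Gm9733. At Gm6300 1 was higher (8.77%). The lower one at A930001A20Rik (chr3:14930838-14931076) had a log2 fold change of -0.79 ± 0.27 (SE). In inguinal fat 7 peaks of 4 genes, all on the Car13 side, had a median of 0.10, with none lower and 1 higher without overlap (10.3% and 10.6% of all peaks). Neither limma nor DESeq2 called any of them. At an unadjusted p under 0.05, 1 was lower (A930001A20Rik) and 1 higher (Gm9733) in brown fat (5.59% and 3.46% of all peaks). None passed it in inguinal fat (7.42% lower and 7.61% higher over all peaks).

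Outside the cluster, DESeq2 called 1 member peak in each depot, at the same site of Car4, and both were higher in AKO, the one in brown fat only with the PC1 covariate. Car4 is held at the outer face of the plasma membrane by a lipid anchor and faces the extracellular space of capillaries and muscle. The tables have a peak in its intron 1. In inguinal fat (chr11:84959716-84960301) it held 130, 115 and 136 normalized reads in flox against 191, 178 and 185 in AKO. Every AKO aliquot lay above every flox aliquot, with a log2 fold change of 0.54 ± 0.13 (SE) and an adjusted p of 0.173 by limma and 0.0837 by DESeq2. The DESeq2 call was lost whichever aliquot was left out, with an adjusted p between 0.205 and 0.480.

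The same peak in brown fat (chr11:84959659-84960334) held 929, 579 and 392 normalized reads in flox against 928, 355 and 631 in AKO. The genotypes overlapped throughout, and the means, 633 and 638, differed by far less than the SDs of 272 and 286. With PC1 in the fit the log2 fold change was 0.91 ± 0.21 (SE), with an adjusted p of 0.436 by limma and 0.000997 by DESeq2. Without it the log2 fold change was -0.01, and the adjusted p 0.996 by DESeq2. In both genotypes the value was lower the higher the PC1 score. The brown fat call thus rests on the covariate, while inguinal fat was fitted without one. The DESeq2 call was also lost without flox mouse 3 (adjusted p of 0.369) and AKO mouse 1 (0.583). The 300 bases printed above for this intron hold 4 DR1 matches. Of these, 3 overlap in 1 run on the minus strand, at bases 9 to 21, 16 to 28 and 23 to 35, and 1 lies on the plus strand at bases 142 to 154. A DR1 match is found in 12.9% of brown fat peaks and 8.87% of inguinal peaks of like width. A smaller brown fat peak beyond the gene (chr11:84968856-84969056), named after its values were seen, held 29.1 ± 2.11 in flox and 45.9 ± 11.2 in AKO (SD, n = 3) without overlap, with a log2 fold change of 0.80 ± 0.24 (SE) and an adjusted p of 0.476 by limma.

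**Figure D4:**
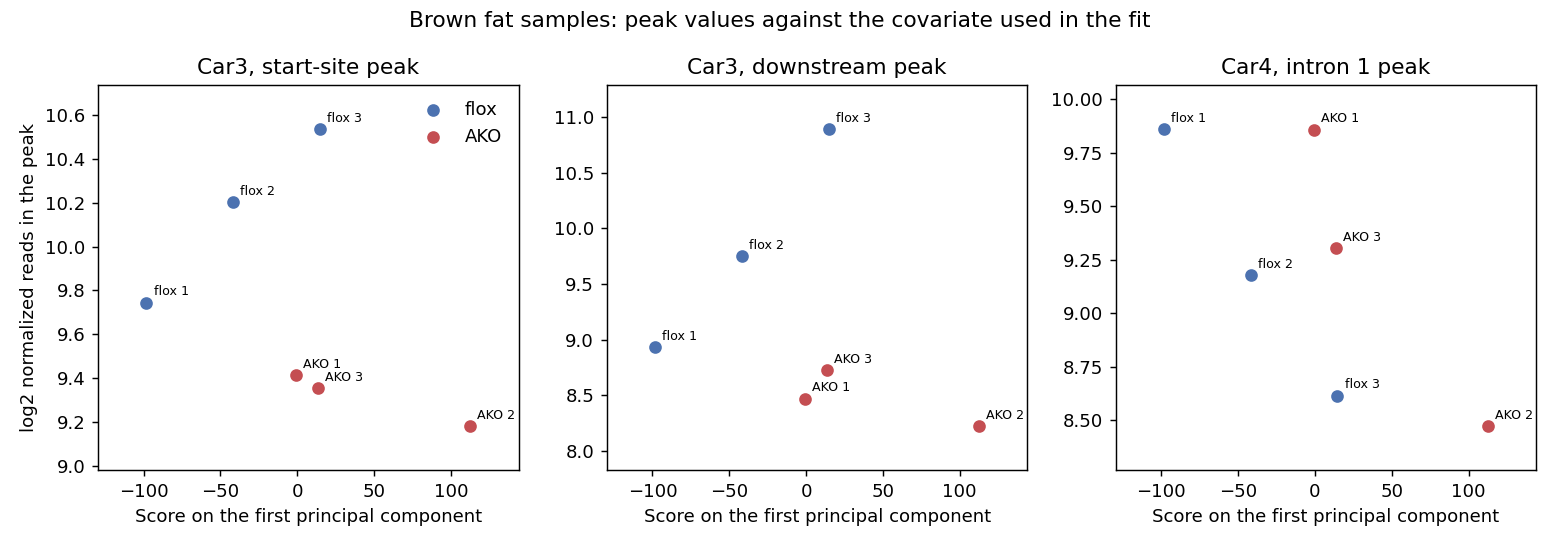
Log2 normalized reads at 3 brown fat peaks against the score of each of the 6 samples on the first principal component, the covariate of the brown fat fit. At both Car3 peaks every AKO mouse lies below every flox mouse, while at Car4 the genotypes overlap and the values fall as the score rises within each genotype.

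Car8 binds a calcium release channel in neurons and has lost carbonic anhydrase activity. Its start-site peak was higher in AKO without overlap in both depots. It held 255.5, 231 and 247 normalized reads in flox against 261, 340 and 333 in AKO brown fat (chr4:8238655-8240019), and 36.4, 38.9 and 41.3 in flox against 65.7, 49.1 and 75.9 in AKO inguinal fat (chr4:8238794-8239174). The log2 fold changes were 0.25 ± 0.21 and 0.68 ± 0.18 (SE), with adjusted p of 0.745 and 0.186 by limma and 0.894 and 0.240 by DESeq2. By edgeR the inguinal peak was called (adjusted p of 0.0972). The brown fat peak of smallest p, a faint one at -141847 bp from the start (chr4:8380788-8380988), held 39.7, 42.1 and 45.3 in flox against 29.9, 36.7 and 29.7 in AKO, a log2 fold change of -0.58 ± 0.17 (SE).

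Car12, a transmembrane isoform with its active site outside the cell, had no peak over its start site. Of its 6 brown fat peaks 5 had a negative log2 fold change (median -0.18), and all 6 overlapped between genotypes. The nearest to the start was also that of smallest p in brown fat (chr9:66710707-66710907), with 31.4, 49.5 and 44.0 normalized reads in flox against 32.0, 48.3 and 38.4 in AKO. In inguinal fat that site (chr9:66710716-66710894) held 22.8, 47.8 and 31.8 in flox against 34.6, 27.4 and 28.9 in AKO. A distal inguinal peak, at -47317 bp from the start (chr9:66666227-66666512), held 25.7, 31.1 and 42.2 in flox against 50.7, 58.2 and 53.5 in AKO. This peak was higher without overlap, with a log2 fold change of 0.72 ± 0.19 (SE) and an adjusted p of 0.186 by limma and 0.291 by DESeq2.

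Car5a, the mitochondrial isoform that supplies bicarbonate to pyruvate carboxylase, had 2 peaks per table, both in intron 2 and both where the annotation also places Gm20388 on the other strand. The one nearer the start held 210, 181 and 212 normalized reads in flox against 202, 222 and 243 in AKO brown fat (chr8:121932336-121933024), and 127, 67.8 and 87.8 in flox against 103, 82.2 and 80.2 in AKO inguinal fat (chr8:121932359-121932907). The other held 63.7, 84.2 and 80.2 in flox against 74.2, 63.7 and 64.3 in AKO brown fat (chr8:121927395-121927607), and 44.9, 56.7 and 49.1 in flox against 51.9, 50.2 and 38.5 in AKO inguinal fat (chr8:121927401-121927602). All 4 overlapped, with log2 fold changes from -0.22 to 0.13.

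Car14, a membrane isoform, had 1 peak per table, over exon 2. It held 679, 557 and 515 normalized reads in flox against 519, 421 and 563 in AKO brown fat (chr3:95901588-95902327), and 81.3, 66.7 and 90.4 in flox against 83.0, 103 and 78.1 in AKO inguinal fat (chr3:95901638-95902155). The genotypes overlapped, with log2 fold changes of 0.06 ± 0.18 and 0.15 ± 0.17 (SE). It lies on chromosome 3 but far from the Car3 cluster.

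The depots shared most of these sites. Of the 24 inguinal member peaks 21 (87.5%) overlapped a brown fat member peak by at least 1 bp, which was 21 of 40 (52.5%) of the brown fat peaks. Over 50% of both peaks was shared by 13. The start-site and downstream peaks of Car3 were the only 2 of the 21 pairs in which AKO was lower without overlap in both depots, and the Car8 start-site pair was higher without overlap in both. The share of all peak pairs that do so was not counted. Of these pairs only the downstream one shared over 50% of both peaks. The start-site pairs shared 49.3% of the brown fat peak at Car3 and 27.9% at Car8. No pair moved in opposite directions without overlap.

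Other genes of bicarbonate handling were counted for comparison. Of the 7 remaining carbonic anhydrase genes, Car5b lies on the X chromosome and could have no peak. Together with Car6, Car7, Car9, Car10, Car11 and Car15, it made a list with 12 peaks at 6 genes in brown fat and 7 at 5 genes in inguinal fat. Limma and DESeq2 called none of them. At an unadjusted p under 0.05, 1 was lower in brown fat (5.59% of all peaks). In inguinal fat 2 were lower and 1 higher (7.42% and 7.61% of all peaks). The bicarbonate and proton transport list had 72 peaks at 16 of 18 genes in brown fat, where limma called none. DESeq2 called 2 of them lower there, against 0.298% of all tested peaks. In inguinal fat the list had 37 peaks at 14 genes, and neither tool called any. Both DESeq2 calls lay at Slc4a4, the sodium bicarbonate cotransporter NBCe1. The log2 fold change there was below 0 at 17 of 18 brown fat peaks (median -0.45), and 8 were lower without overlap (8.84% of all peaks). The called peak of smaller adjusted p (chr5:88928535-88930744) held 1417, 1483 and 1109 normalized reads in flox against 800.0, 726 and 650 in AKO, a log2 fold change of -0.75 ± 0.22 (SE), with an adjusted p of 0.476 by limma and 0.0142 by DESeq2. In inguinal fat Slc4a4 had 5 peaks, 3 of them negative, with a median of -0.03.

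The carboxylases that use bicarbonate (Pcx, Acaca, Acacb, Pcca, Pccb, Mccc1 and Mccc2) had 42 peaks in brown fat, with a median log2 fold change of 0.04. Neither limma nor DESeq2 called any of these, and at an unadjusted p under 0.05, 2 were lower and none higher (5.59% and 3.46% of all peaks). In inguinal fat their 17 peaks had a median of 0.17, and DESeq2 called 0.546% of all tested peaks higher there. Higher without overlap were 10.6% of all peaks and 4 of these 17. DESeq2 called 1 of these, at Pcx (chr19:4536583-4536933), with 52.7, 80.1 and 52.5 normalized reads in flox against 133, 111 and 84.5 in AKO (log2 fold change 0.82 ± 0.23, SE, adjusted p of 0.0705 by DESeq2 and 0.196 by limma), and the other 3 lay at Acacb, with log2 fold changes from 0.33 to 0.49.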

How the data were processed

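ATAC-seq was measured in 6 brown fat samples (3 mice per genotype) and 6 inguinal aliquots (3 per genotype, each from 1 pool of 6 mice). The authors aligned reads to mm10 with BWA (0.7.17-r1188), marked duplicates with Picard (2.8.14), called broad peaks per sample with MACS2 (2.1.1.20160309), kept peaks found in at least 2 of 3 samples of a genotype and counted reads with bedtools (2.27.1). The deposited signal values are those counts divided by the authors' size factor of each sample. HOMER assigned each peak to the nearest gene start, so an assigned gene need not be the one a peak acts on. The tables also hold the fold changes and p-values of the authors' own DESeq2 fit, which were not used. No column of sample values was left unused (0). The table with a PC1 covariate was taken as brown fat from the study's methods.

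Each tissue was fitted over all its peaks with limma (3.58.1, R 4.3.3) on log2(normalized reads + 1), with PC1 in brown fat only, and called at a Benjamini-Hochberg adjusted p under 0.1. A fold change on this scale understates the change of low peaks. Whole reads were recovered for 100% of values (within 0.001 reads) and tested with DESeq2 (1.42.0) and edgeR (4.0.16). The main limma fit and the DESeq2 fit of the same design were tested on simulated data first. The other fits, edgeR among them, and the permutation test were not. A peak is said to differ without overlap where the ranges of the 2 genotypes are disjoint. Car3 was compared with its neighbours by an exact two-sided permutation test without a covariate.

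The members and gene lists were chosen with earlier results of these data known. Values per sample are given for all Car3 peaks and, for each other gene, for the peak nearest its start and the peak of smallest p. Places in genes come from GENCODE M21. Replicate numbers were checked for pairing. Alternatives were other pseudocounts (0.1, 10), a minimum of 10 normalized reads, total-read and TMM scaling, no PC1 in brown fat and PC1 in inguinal fat, limma with a trend, a replicate block and leaving out each sample. DESeq2 without PC1 or without 1 sample, and another Car1 peak, were added after seeing the data.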

Additional observations from a re-analysis of the deposited data

How the results depend on the processing

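With limma, no setting but the trend called a member peak, including those with the replicate number as a block (0 with a replicate block in inguinal fat, and 0 without and with PC1 in brown fat). Same-numbered samples do not deviate together in every pair (correlations of 0.494, 0.063 and -0.236 in brown fat, -0.039, -0.050 and -0.057 in inguinal fat). Each value was centred on the mean of its genotype, which ties these correlations to each other. They therefore cannot decide whether the numbers pair the samples, and the main fits treat them as unpaired. Over all peaks limma with a trend called 44 lower and 9 higher in brown fat and 792 lower and 648 higher in inguinal fat, against 0 without it. The number of member peaks called moved with the tool: DESeq2 called 4, edgeR 4 and limma with a trend 2 in brown fat, and 2, 5 and 3 in inguinal fat. DESeq2 without PC1 called 2 in brown fat, and leaving out 1 sample gave 0 to 5 in brown and 0 to 1 in inguinal fat, both chosen after seeing the data. Shared member peaks fell from 21 to 13 when 50% of both had to overlap. The log2 ratio of Car3 to a neighbour kept its sign in every setting run, between -1.02 and -0.10 with 1 sample left out.

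Of the named log2 fold changes, those that changed sign were near 0, apart from those in a PC1 fit. In brown fat without PC1, Car1 nearest its start gave -0.16 (DESeq2 -0.10), Car2 -0.075 (-0.081), Car14 -0.22 (-0.22) and Car4 -0.0055, and the replicate block without PC1 gave the same 4 values. With PC1 the block gave -0.47 for that Car1 peak. The distal Car3 peak gave 0.064 by DESeq2 and 0.067 by edgeR, and Car2 -0.0056 scaled to total reads. Leaving out 1 sample gave ranges of -0.13 to 0.026 for Car13, -0.49 to 0.49 for Car1, -0.59 to 0.35 for distal Car3, -0.088 to 0.074 for Car2 and -0.0100 to 0.15 for Car14. In inguinal fat Car13 at its start gave 0.0067 by DESeq2 and 0.0079 by edgeR. Ranges without 1 aliquot were -0.069 to 0.12 for Car13, -0.14 to 0.0066 for Car1, -0.61 to 0.16 for distal Car3, -0.10 to 0.10 for Car2, -0.18 to 0.029 and -0.26 to 0.18 for Car5a and -0.36 to 0.15 for Car12. PC1 as covariate in inguinal fat, where it separates the genotypes, gave 2.45 for upstream Car1, 2.22 and 1.44 for the upstream Car3 peaks, -1.78 for Car2, 2.02 for Car5a, -1.50 for distal Car12 and -0.55 for Car14. The causes were not tested. Depth limits the precision at peaks of few reads, most of all in the shallowest samples.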
